A study of Drosophila melanogaster with 12 samples.

Results

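Spermatogonia, the mitotic germ cells of the Drosophila melanogaster testis, were compared with spermatocytes, the meiotic cells they become, for how far their messenger RNAs reached at the 3′ end. Every row of the 1 deposited table that sets the spermatogonia (SG) against the spermatocytes (SC) was taken, which gave 751 genes of the 1457 distinct genes in the 4 tables of the series. SG and SC were each 3 libraries of germ cells laser dissected from wild-type testes, and both groups went through the same low-input cDNA kit (SMARTer Ultra Low Input v3) and Nextera XT tagmentation. The other 3 tables set mutant testes (SG-tut, SG-bam and SG-bgcn, 2 libraries each) against the same SC libraries and are not described here. The labels give no age, fly number or pooling, so the spread between libraries may be technical. A dissected region is a bulk sample, in which fewer cells of a type and less RNA per cell cannot be told apart.

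A gene's messenger RNA is cut and polyadenylated at 1 of several possible sites, and use of a site further downstream leaves a longer 3′ untranslated region (3′ UTR) with more room for RNA-binding proteins and microRNAs. Germ cells of the testis are known for frequent use of upstream sites. In flies, spermatogonia divide mitotically inside a cyst of somatic cells and then become spermatocytes, which grow, transcribe a large testis-specific programme and enter meiosis.

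In the authors' deposited table each gene has 1 extension, the stretch past an upstream 3′ end, with its length, its average level per group, the average level of the gene and the share of 3′ reads in the long form. The share equals the extension level over the gene level, is capped at 100%, and is therefore a ratio of 2 averages. The authors' unit of level is not named. Each group's average extension level turned out to be an exact sum of whole reads in 3 libraries divided by the extension's length, so the reads of every library could be recovered. Exactly 1 combination of reads was found for 750 of 751 SC values and 726 of 751 SG values, and the 1 and 25 others held too many reads to be searched. Libraries are called a, b and c, as they could not be tied to the labels' replicate numbers. Relative to the deepest SC library, the scale of 1 read put SC at 1, 0.967 and 0.891 and SG at 0.699, 0.596 and 0.529. By this scale, which comes from the authors' unnamed unit and not from library totals, SG libraries were the shallower ones throughout.

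The extension was higher in spermatogonia for most of the listed genes. A gene was called at the authors' FDR of 0.05 or less, which 724 of 751 listed genes passed (96.4%), 665 with the extension higher in SG (88.5%) and 59 with it higher in SC (7.86%), per the authors' deposited table. The number of tests behind the FDR was estimated from the ranks that the p-values imply. The smallest number that fitted best was 5813, with whole ranks for 87.6% of the listed genes. By this estimate at least 4008 (68.9%) passed that threshold, so the table holds a selection. In the table no listed extension differed by less than 2-fold, and how its rows were chosen is not given in the sources used here. Counts of direction within it describe the list and not the transcriptome.

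Across the 665 genes with a higher extension in SG, the median was 46 reads over the 3 SC libraries (quartiles 16 to 192) in the 664 with recovered SC reads. It was 567.5 over the 3 SG libraries (249 to 1937) in the 640 with recovered SG reads, and the 25 left out held too many reads to be searched, so this median lies low. The median extension level was 0.0825 in SC against 1.80 in SG per the authors' deposited table, a median fold of 24.9 (quartiles 14.4 to 42.2). The median gene level was close, 14.5 in SC against 16 in SG per the authors' deposited table. Single genes differed more, with a median fold of the gene level of 1.56 (quartiles 0.547 to 3.71), SG over SC. For the 59 genes with a higher extension in SC the median was 449 reads in SC and 23 in SG, and the median fold of SC over SG was 11.2. SC and SG libraries rarely overlapped, but the list holds no extension under a 2-fold difference between these same libraries. The lack of overlap therefore describes the selected list and is no separate support. Over the 726 genes with recovered reads on both sides, 722 (99.4%) had no overlap between SC and SG libraries. In the called genes this was 636 of 640 with the higher extension in SG and 59 of 59 with it higher in SC. CG33557, stai, CG31473 and CG11319 were the 4 that overlapped, named here because they are so few.

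**Figure D1:**
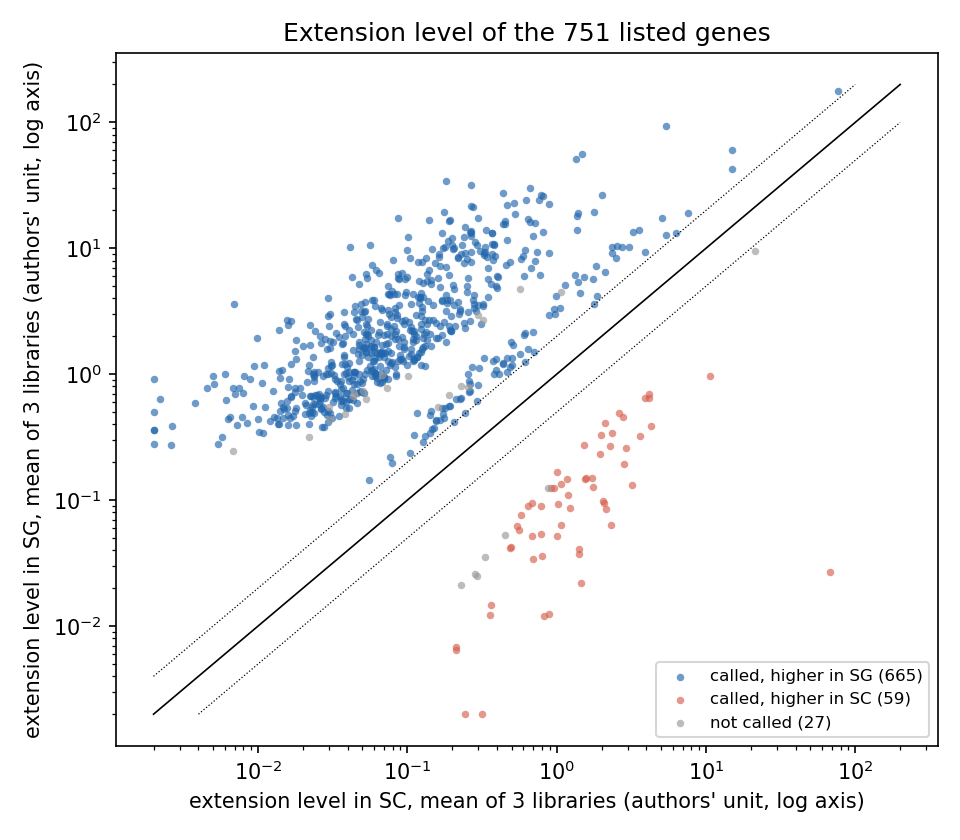
Extension level of each listed gene in SC (x axis) and SG (y axis), both as the authors' group averages on log axes; the solid line marks equal levels, dotted lines a 2-fold difference, and extensions with 0 reads are drawn at the edge. Of 751 genes, 665 called genes (blue) lie above the line and 59 (red) below it, and above the line a band without genes separates folds of up to 4.60 from folds of at least 7.92.

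Libraries varied more in the group where the extension was low. For SG-higher extensions the median coefficient of variation was 0.373 between SC libraries (661 extensions) and 0.139 between SG libraries (640 extensions), and for the 59 SC-higher ones it was 0.302 in SC and 0.532 in SG. Under 10 reads in all were found in SC for 97 SG-higher extensions and in SG for 15 SC-higher ones. Single libraries also leaned to one side. SC library a was the highest of its group for 358 of 640 SG-higher extensions and the lowest for 48 of 59 SC-higher ones, with medians of 1.19 and 0.723 of the group mean. SG library a was the lowest of its group for 400 of 640 SG-higher extensions, and SG library c the highest for 35 of 59 SC-higher ones. Over the recovered libraries the median log2 fold of the extension was 4.63 for SG-higher and -3.48 for SC-higher extensions. Without SC library a these medians were 4.75 and -3.75, and without SG library c they were 4.63 and -4.0.

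Regulators of germ cells had more of the extension in spermatogonia, with tut the smallest difference of the 6. Of the germline stem cell and spermatogonial regulators, all 6 listed were called with the extension higher in SG, against 88.5% of all listed genes. Their median share was 1.24% for SC against 47.8% for SG per the authors' deposited table. Over all 724 called genes these medians were 0.906% and 11.5% in the same table. Sxl, the switch gene of sex determination that also acts in the female germline, had extension levels of 0.221, 0.0985 and 0.116 in the SC libraries and 5.29, 5.30 and 4.90 in the SG libraries. Every SG library was far above every SC library, and the SG values hardly varied. Its 4520-base extension (dm6, chromosome X, 7079594 to 7084113, minus strand) lay inside the annotated gene. mei-P26, a relative of brat that limits germ cell divisions, had levels of 0.364, 0.173 and 0.187 in SC and 10.9, 12.9 and 13.4 in SG. The gene itself went the other way, from a gene level of 25.6 in SC to 11.4 in SG per the authors' deposited table.

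tut, an RNA-binding protein that works with Bam and Bgcn to end spermatogonial divisions, was among the small differences. It had levels of 0.172, 0.121 and 0.159 in SC and 0.475, 0.403 and 0.256 in SG, from 28, 19 and 23 reads in SC and 54, 39 and 22 in SG (FDR of 0.00158 by the authors' deposited table). The groups did not overlap, but the lowest SG library lay close to the highest SC library. bam and bgcn were not listed. brat, a translational repressor related to mei-P26, had levels of 0.524, 0.246 and 0.332 in SC and 12.8, 13.8 and 12.97 in SG. Mad, the transcription factor of the BMP pathway, had 0.151, 0.149 and 0.316 in SC and 4.20, 5.37 and 4.66 in SG. In both genes the SG libraries were all high and close together.

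Among the SG-higher extensions with reads in both groups, the largest fold was that of stg. stg, a Cdc25-type phosphatase needed to start mitosis, had 4 reads over the SC libraries and 1293 over the SG libraries, at levels of 0.00496, 0.0103 and 0.00557 in SC and 2.54, 3.66 and 4.64 in SG. All SC libraries were near 0, and the gene level was also low in SC, at 0.57 against 23.5 in SG per the authors' deposited table. Gene and extension of stg were both higher in SG, the extension by more, and the share was 1.22% in SC against 15.4% in SG per the authors' deposited table. BubR1, a spindle checkpoint kinase, had a lower gene level in SG. Its extension levels were 0.0744, 0.0326 and 0.0785 in SC and 2.06, 1.74 and 1.59 in SG, while its gene level was 41.2 for SC against 23.7 for SG in the authors' deposited table. This extension overlaps an annotated long noncoding RNA, and the strand setting of the counting is not stated, so reads of the noncoding RNA could not be told apart. Of the cyclins, CycT, a partner of the elongation kinase Cdk9, had 0.308, 0.182 and 0.296 in SC and 12.9, 13.3 and 14.3 in SG. The 4 listed spindle, cyclin and checkpoint genes were all called higher in SG, against 88.5% of all listed genes.

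**Figure D2:**
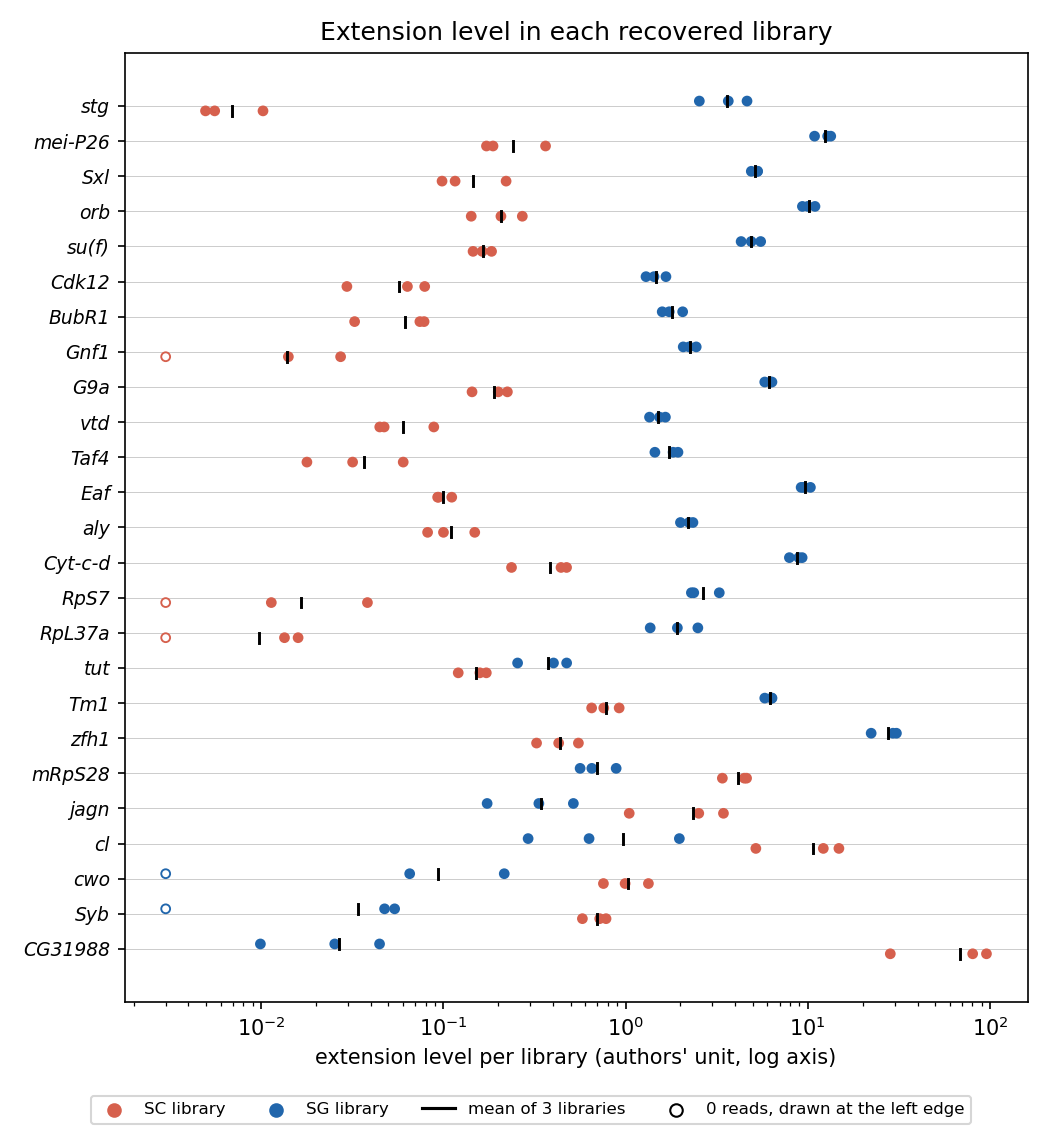
Extension level in each recovered library for 25 named genes, on a log axis; red points are SC libraries, blue points SG libraries, black bars the mean of 3 libraries, and open circles at the left edge libraries with 0 reads. In all 25 genes the SC and SG libraries are separate, most closely for tut, and the 6 genes at the bottom are those with the extension higher in SC.

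Genes that act on RNA ends were themselves among the extended genes. Of the cleavage and polyadenylation machinery and its transcription kinases, 5 of 5 listed genes were called higher in SG, against 88.5% of all listed genes. Their median log2 fold of the extension was 4.42 against 4.52 over all called genes. su(f), a subunit of the cleavage stimulation factor, had levels of 0.146, 0.184 and 0.164 in SC and 4.31, 5.51 and 4.90 in SG. Its 380-base extension (dm6, chromosome X, 23101193 to 23101572) crossed the annotated gene end, with 239 bases in the annotated 3′ UTR. Cdk12, a kinase of the RNA polymerase II tail, had 0.0791, 0.0636 and 0.0296 in SC and 1.43, 1.67 and 1.30 in SG. Its partner CycK had 0.0781, 0.0285 and 0.0876 in SC and 1.18, 1.57 and 1.397 in SG. Fip1, a polyadenylation factor, had 0.0799, 0.0826 and 0.0763 in SC and 1.28, 1.11 and 1.34 in SG. In each of these genes SC rested on 19 to 58 reads, and no SC library reached an SG library.

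Proteins that bind or silence messenger RNA showed the same direction. All 8 listed splicing and nuclear RNA-binding proteins, all 6 of cytoplasmic localization and translation control and all 4 of the small RNA pathways were called higher in SG. Of all listed genes 88.5% were called so, and these counts are therefore not set apart by direction. orb, a CPEB protein that controls translation through 3′ UTRs in the germline, had levels of 0.272, 0.142 and 0.207 in SC and 9.34, 11.0 and 9.999 in SG. Its 2300-base extension (dm6, chromosome 3R, 23262724 to 23265023, minus strand) lay wholly in the annotated 3′ UTR. The orb gene was far higher in SC, with a gene level of 379 against 45.2 in SG per the authors' deposited table, and the share went from 0.0547% to 22.3%. The extension level of orb was thus below the gene level in both groups, and by far more in SC.

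AGO3, the Argonaute of the piRNA amplification cycle, had many extension reads in both groups. Its extension levels were 2.4, 1.4 and 1.5 in SC and 21.3, 18.6 and 18.5 in SG, at gene levels of 41.7 and 49.4 per the authors' deposited table. The extension starts inside the gene, far before its annotated end, and is not annotated as 3′ UTR. gw, the Argonaute partner GW182, had 0.0381, 0.0591 and 0.0153 in SC and 1.22, 1.65 and 1.38 in SG. Imp, an RNA-binding protein of stem and germ cells, had the second longest extension at 8110 bases and 10234 SC reads, at 1.42, 1.22 and 1.43 in SC. Its SG average was 37.5 times as high in the authors' deposited table, with SG libraries not recovered. It touches an annotated long noncoding RNA, whose reads could not be told apart.

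Ribosomal protein genes had extensions at a tiny share, the ratio of extension level to gene level. All 12 listed cytosolic ribosomal protein genes were called higher in SG, against 88.5% of all listed genes. In the authors' deposited table their median log2 fold was 5.75 for the extension and 3.43 for the gene. Both are above the medians over all called genes, 4.52 and 0.49. RpS7 had 4 reads in SC and 422 in SG, at levels of 0.0114, 0 and 0.0384 and of 2.30, 3.27 and 2.37. The gene level of RpS7 was 803 in SC against 9303 in SG per the authors' deposited table, and the share was 0.0284% even in SG. RpL37a had 7 and 866 reads, at 0.0160, 0 and 0.0135 in SC and 1.37, 2.49 and 1.93 in SG. RpS26 had 0.0473, 0.0245 and 0.0417 in SC and 2.94, 3.20 and 3.17 in SG. The highest share of any of these 3 genes was thus under 0.1%. Of the mitochondrial ribosomal proteins 4 were called higher in SG and 1, mRpS28, higher in SC, and of the ribosome biogenesis genes 5 and 1, Surf6.

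Chromatin and replication genes included several whose gene levels were close in both groups. All 15 listed chromatin genes and all 5 listed replication and repair genes were called higher in SG, against 88.5% of all listed genes. G9a, a histone H3 methyltransferase, had extension levels of 0.225, 0.144 and 0.200 in SC and 6.25, 6.36 and 5.81 in SG. Its gene level was 6.14 for SC against 6.96 for SG, and its share 3.09% and 88.2%, in the authors' deposited table. vtd, the Rad21 subunit of cohesin, had 0.0887, 0.0474 and 0.0448 in SC and 1.35, 1.66 and 1.54 in SG. dom, a SWI2/SNF2 remodeller, had 8 reads in SC and 581 in SG. pont, an ATPase of remodelling complexes, had 0.291, 0.156 and 0.252 in SC and 9.15, 11.1 and 11.6 in SG. Its extension touches exons of the neighbouring gene Nuak.

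Gnf1, the large subunit of the clamp loader of DNA replication, had 6 reads in SC and 598 in SG. Its levels were 0.0273, 0.0141 and 0 in SC and 2.07, 2.44 and 2.23 in SG, at gene levels of 46.8 and 42.8 per the authors' deposited table. The 450-base extension (dm6, chromosome 3R, 4910102 to 4910551) begins 20 bases past the annotated gene end. Top3beta, a topoisomerase, had 16 and 1084 reads, at 0.0684, 0.0353 and 0.0384 in SC and 4.02, 5.55 and 5.94 in SG.

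Among genes of the spermatocyte and spermatid programmes, aly and Cyt-c-d had far higher gene levels in SC and higher extensions in SG. aly, which switches on the spermatocyte programme, had a gene level of 72.7 for SC against 14.1 for SG per the authors' deposited table. Its extension levels were 0.149, 0.0821 and 0.100 in SC and 2.002, 2.23 and 2.34 in SG. Cyt-c-d, the cytochrome c of spermatids, had a gene level of 2122 for SC against 113 for SG per the authors' deposited table. Its extension had 0.475, 0.237 and 0.443 in SC and 7.93, 9.31 and 8.93 in SG, and its share went from 0.0181% to 7.69%. The list made for the spermatocyte programme held Taf4, aly and simj, and the spermatid differentiation list Cyt-c-d, fzo and r-cup. All had extensions called higher in SG, as had 88.5% of all listed genes. Taf4 belongs to a general transcription factor and its gene level was steady, so a place in the list does not make a gene specific to spermatocytes. fzo, a mitofusin of spermatids, has the same deposited gene levels as cnc, 245 in SC and 1.71 in SG, and its extension touches cnc exons, so the signal of these neighbours could not be told apart.

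The opposite directions of gene and extension were common. Among the 665 SG-higher extensions the gene level was at least 2-fold higher in SG in 278, within 2-fold in 233 and at least 2-fold lower in SG in 154. The median fold of the extension was 31.3, 20.2 and 21.4 in these classes in the authors' deposited table. The median share in SG was 11.4%, 11.0% and 26.7% in the same order. The share is divided by the gene level, so a lower gene level in SG raises it by arithmetic. In 26 genes the gene level was at least 10-fold lower in SG although the extension was higher there. These include the neighbours cnc and fzo, which could not be told apart. They also include genes with SG gene levels down to 0.08, where the share is capped at 100%. Pde9, a cyclic nucleotide phosphodiesterase, had the longest extension of these, 6171 bases, and gene levels of 234 in SC against 4.35 in SG per the authors' deposited table. Its extension levels were 0.108, 0.0381 and 0.0330 in SC and 1.88, 1.61 and 1.47 in SG, and SC library a was well above the others of its group.

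**Figure D3:**
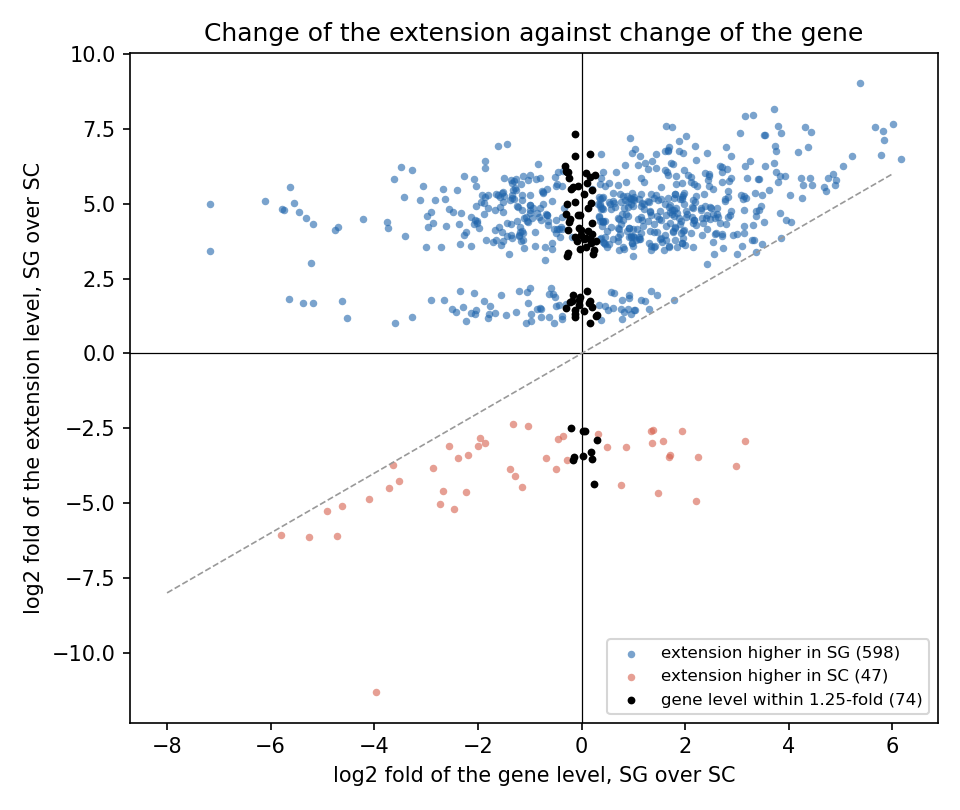
Log2 fold of the gene level (x axis) against log2 fold of the extension level (y axis), SG over SC, from the authors' averages, for 719 called genes with reads in both groups; black points are 74 genes with steady gene levels, within 0.32 on the log2 scale, and the dashed line marks equal folds. SG-higher extensions (blue) spread over gene folds on both sides of 0, and all lie above the dashed line by definition, since direction was set by the share.

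The extension differed at a steady gene level in 74 called genes, 64 with it higher in SG and 10 with it higher in SC. Steady means gene levels within 0.32 of each other on the log2 scale and at least 1 in both groups. The 64 genes had a median gene level of 26.9 in both groups and a median share of 0.644% for SC against 11.5% for SG per the authors' deposited table. Recovered libraries did not overlap in 62 of 62, against 99.4% of all listed genes with recovered reads. Eaf, a partner of the elongation factor ELL, had 141 reads in SC and 8696 in SG, at levels of 0.111, 0.0941 and 0.0932 and of 9.20, 10.3 and 9.47. Its gene level was 19.8 for SC against 18.2 for SG, and its share went from 0.502% to 53.3% (FDR 6.53e-92 in the authors' deposited table). Taf4, a subunit of the general transcription factor TFIID, had 0.0318, 0.0603 and 0.0179 in SC and 1.45, 1.94 and 1.82 in SG. Cfp1, a CXXC zinc finger protein, had 15 reads in SC and 655 in SG. Br140, a bromodomain protein, had 13 and 556.

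Signalling, transcription factor and adhesion genes made up long lists. All 31 listed kinase, phosphatase and calcium signalling genes and all 21 listed adhesion and axon guidance genes were called higher in SG. This was so for 88.5% of all listed genes. The adhesion list had a median length of 1830 bases against 590 over all called genes, and its median share in SG was 100% in the authors' deposited table. A share of 100% includes extension levels above the gene level. Among the transcription factors 22 were called higher in SG and 3 higher in SC, among the small GTPases and regulators 16 and 1, and in membrane trafficking 12 and 2. kibra, a regulator of the Hippo pathway, had levels of 0.236, 0.170 and 0.188 in SC and 11.1, 12.5 and 12.7 in SG. LIMK1, a kinase of cofilin, had 0.423, 0.227 and 0.336 in SC and 8.03, 9.04 and 9.33 in SG. In both, every SG library lay far above every SC library.

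**Figure D4:**
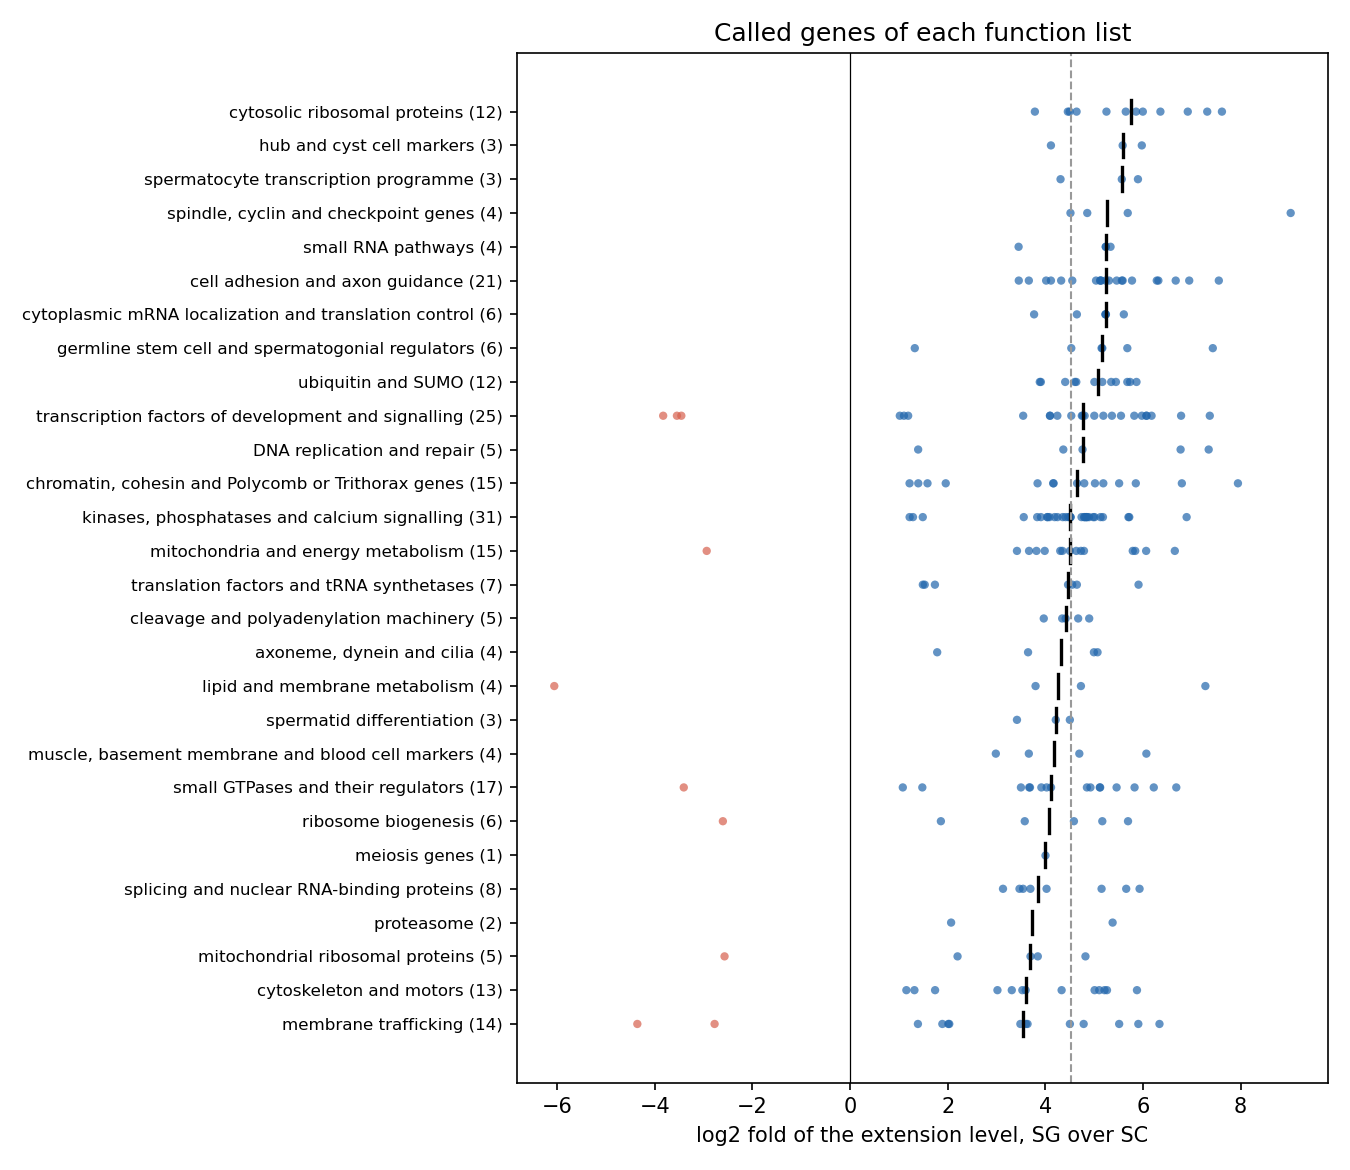
Log2 fold of the extension level, SG over SC, from the authors' averages, for the called genes of 28 function lists; each point is a gene (blue higher in SG, red higher in SC), black bars are list medians, the dashed line is the median of all called genes at 4.52, and the number of called genes stands beside each name. Red points occur in 7 lists.

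Of the 31 function lists 28 had a called member, and 7 of them a member with the extension higher in SC. The nuclear pore list had 1 listed gene, Nup37, which was not called, and the accessory gland and the histone and heat shock lists had none. The remaining lists with called genes lay on the SG side: proteasome 2 of 2, ubiquitin and SUMO 12 of 13 (CSN5 not called), axoneme, dynein and cilia 4 of 4, cytoskeleton 13 of 13, translation factors 7 of 7 and meiosis 1 of 1. Mitochondria and energy had 14 genes higher in SG and Dak1 higher in SC, and lipid metabolism had 3 and Lip2. Near 88.5% of listed genes were called higher in SG, so a list wholly on that side is not set apart by its direction.

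Markers of somatic cells were also in the table. CadN, a hub cell marker, had extension levels of 0.153, 0.129 and 0.139 in SC and 4.67, 7.97 and 7.58 in SG. zfh1, a marker of cyst stem cells and early cyst cells, had 0.551, 0.325 and 0.430 in SC and 22.3, 29.3 and 30.6 in SG. Tm1, a muscle tropomyosin, had 0.923, 0.652 and 0.760 in SC and 5.81, 6.33 and 6.36 in SG. Of 12 muscle sheath markers 2 were listed, with a summed gene level of 19.8 for SC against 102 for SG, in the authors' deposited table. The 2 listed of 6 cyst cell markers differed in direction, dally with a gene level of 138.8 in SC against 5.13 in SG and zfh1 with 2.70 against 11.3, per the authors' deposited table, and summed to 141 and 16.4. Of 20 markers of spermatocytes and later stages 3 were listed, with a summed gene level of 2440 for SC against 129 for SG, a sum mostly of Cyt-c-d. The 3 listed of 10 spermatogonial markers summed to 113 and 79.1, with tut and mei-P26 higher in SC and stg higher in SG. The 1 of 5 hub markers had 2.34 and 3.21, the 1 of 5 for basement membrane and blood cells 0.56 and 7.94, and 0 of 8 accessory gland markers were listed. The part of somatic cells in the differences was not tested.

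The 59 extensions higher in spermatocytes formed a smaller and different set. CG31988, a gene with no name beyond its number, led by far, with 32315 reads in SC and 8 in SG. Its levels were 28.4, 80.3 and 95.6 in SC and 0.0254, 0.00993 and 0.0447 in SG, and SC library a was far below the other SC libraries. The gene itself was also higher in SC, at 3767 against 240 in the authors' deposited table. In the other called genes of this direction with reads on both sides, the fold of SC over SG reached 70.6. cl, a thioredoxin-like protein of eye pigment synthesis, had extension levels of 5.19, 12.2 and 14.8 in SC and 0.631, 0.292 and 1.97 in SG. Its gene level was steady, 1050 in SC against 950 in SG per the authors' deposited table. The extension begins 2650 bases past the annotated gene end and touches exons of Elp4.

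Syb, a synaptobrevin of vesicle fusion, had 157 reads in SC and 5 in SG, at 0.580, 0.782 and 0.722 in SC and 0.0541, 0 and 0.0476 in SG. Its gene level, 614 in SC against 723 in SG per the authors' deposited table, was steady. jagn, a protein of the endoplasmic reticulum, had 1.05, 2.52 and 3.45 in SC and 0.174, 0.335 and 0.517 in SG. In both genes every SC library was above every SG library, and SC library a was the lowest of its group. mRpS28, a mitochondrial ribosomal protein, had 3.40, 4.49 and 4.62 in SC and 0.653, 0.563 and 0.888 in SG.

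The 3 transcription factors of this direction were cwo, hkb and dar1. cwo, a repressor of the circadian clock, had levels of 0.995, 0.757 and 1.34 in SC and 0.0654, 0 and 0.216 in SG. hkb, a zinc finger protein of the embryonic termini, had 0.685, 1.255 and 1.73 in SC and 0.0880, 0.0619 and 0.109 in SG. dar1, a zinc finger protein of dendrite growth, had 106 reads in SC and 6 in SG. The gene levels of all 3 were low, between 0.13 and 8.46 in the authors' deposited table. No extension higher in SC lay on the X or the fourth chromosome, where 160 and 19 were higher in SG. Over all chromosomes, 59 of 724 called extensions were higher in SC. Chromosome arms 2L, 2R, 3L and 3R held 14, 12, 13 and 20 of these, against 101, 124, 124 and 137 higher in SG. At that rate the 19 called genes of the fourth chromosome are too few for its 0 to be read. A difference between chromosomes was not tested.

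Length and position differed between the directions, with overlap in both. The median length was 606 bases (quartiles 350 to 1230) for the 665 SG-higher extensions and 350 bases (266 to 570.5) for the 59 SC-higher ones. Of 648 SG-higher extensions matched to the annotation, 161 lay inside the annotated gene, 252 crossed its end and 235 lay downstream. Of the 59 SC-higher extensions 0 lay inside, 4 crossed the end and 55 lay downstream. Those that began over 1000 bases past the deposited gene end were 19 of 59 SC-higher and 18 of 665 SG-higher extensions. The far end lay within 50 bases of an annotated transcript end in 110 of 648 SG-higher (17%) and in 0 of 59 SC-higher extensions. The near end did so in 419 (64.7%) and 23 (39.0%). An extension touched an exon of another gene in 75 SG-higher (11.3%) and 15 SC-higher cases (25.4%), where reads of the neighbour could not be told apart.

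**Figure D5:**
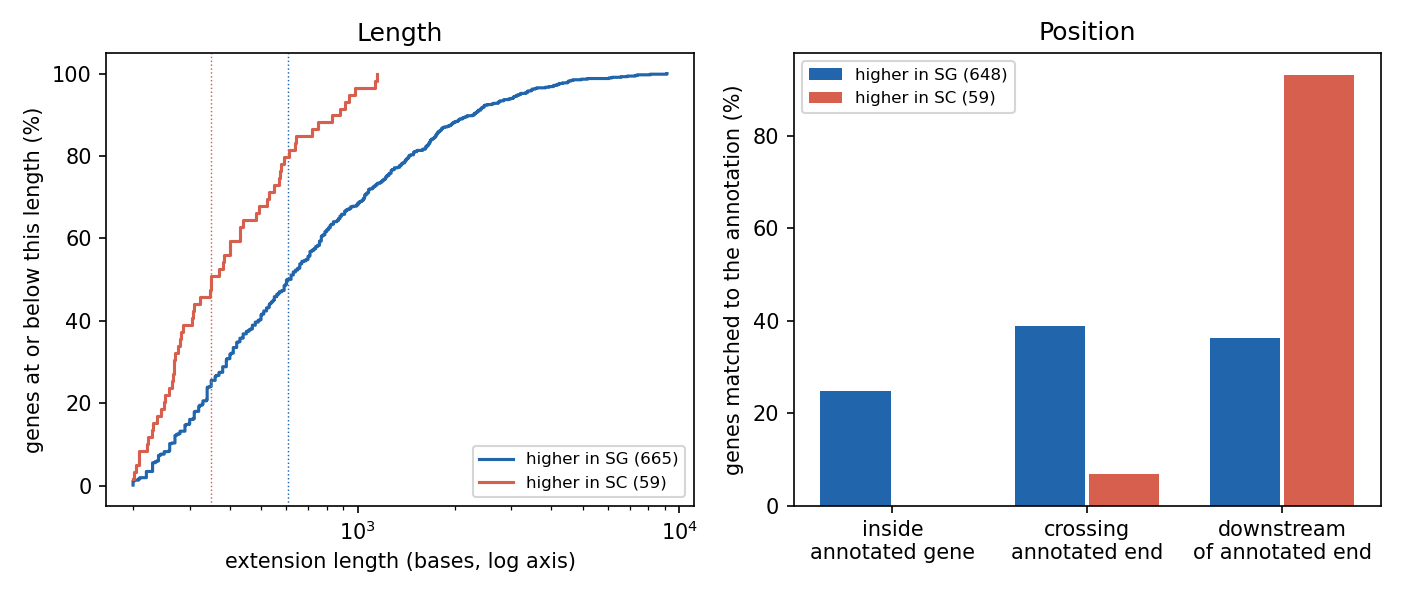
Extension length of called genes as a cumulative percentage on a log axis (left; dotted lines are medians of 606 and 350 bases) and position against the annotated gene as a percentage of matched genes (right), for extensions higher in SG (blue) and in SC (red). SC-higher extensions are shorter, and 55 of 59 lie downstream of the annotated end.

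Extensions downstream of the annotated gene had lower shares than those inside it or across its end. Among SG-higher extensions the median share in SG was 30.5% for those inside the gene, 29.5% for those that crossed its end and 3.98% for those downstream, in the authors' deposited table. Their median log2 folds were close, at 4.56, 4.85 and 4.48. Median lengths were 810, 660 and 450 bases in the same order, so position was not separated from length. Inside means within the outer bounds of the gene, and 112 SG-higher extensions lay wholly in an annotated 3′ UTR. The share in SG also went with length, from a median of 8.07% in 107 genes of 200 to 300 bases to 35.2% in 78 genes of over 2000 bases in the authors' deposited table, while the median log2 fold of the extension was 4.94 in both of these and 4.62, 4.56 and 4.33 in the classes between, in order of length. CG7564 had the longest extension, 9150 bases, at 2.31, 2.40 and 2.82 in SC, and an SG average 3.36 times as high in the authors' deposited table.

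The folds of SG-higher extensions fell into separate ranges. Of the 662 called with reads in SC, 89 lay between 2.03-fold and 4.60-fold and 573 at 7.92-fold or more, with none between. The lower range had a median of 257 reads in SC and 452 in SG, and the upper range 37 and 587. In the lower range 48.9% of matched extensions were downstream and 22.7% crossed the gene end, and in the upper range 33.9% and 41.7%. Lengths were a multiple of 10 in 70.8% of the lower and 89.5% of the upper range. Whether the empty band comes from how the rows were chosen was not tested. All 4 genes whose libraries overlapped were in the lower range, where 81 of 85 were separate against 552 of 552 in the upper range. zetaCOP, a coatomer subunit, is of the lower range, with levels of 15.9, 12.5 and 16.3 in SC and 61.8, 58.7 and 59.99 in SG. Nf1, the fly neurofibromin, had 7.19, 5.20 and 6.48 in SC and 13.2, 13.5 and 13.2 in SG.

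The extension and the share did not always move alike. In 7 called genes the log2 fold of the share was within 0.32 of 0, with an FDR as low as 4.17e-11 in the authors' deposited table. That gene was trol, the perlecan of basement membranes, whose extension was 12.7 times and whose gene was 11.2 times as high in SG. An FDR is therefore not read here as a test of the share.

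The 27 listed genes that were not called lay just outside the threshold, with FDR from 0.05001 to 0.0697 in the authors' deposited table, 20 with the extension higher in SG and 7 in SC. Their libraries did not overlap in 27 of 27, against 99.4% of all listed genes with recovered reads. The nearest outside was Dys, the fly dystrophin, with 98 reads in SC and 733 in SG, and the nearest inside was CG18605, with 8 and 95. A gene outside the threshold is not shown to have equal extension levels.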

How the data were processed

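Messenger RNA of laser-dissected wild-type spermatogonia and spermatocytes was sequenced, with 3 libraries a group. The submitters' processing notes name build dm6, the programs TopHat2 2.1.0, Cuffdiff 2.2.1 and Cufflinks 2.2.1, and also DESeq2, Trimmomatic 0.33, FastQC 0.11.3 and CASAVA. What each did, how extensions were defined and the strand setting were not given in the sources used. The authors deposited a p-value and a Benjamini-Hochberg FDR for each gene, without stating which quantity, extension level or share, was tested. The share is a fraction deposited by the authors, the ratio of extension to gene level after 1e-05 is added to each, capped at 1, and it is printed as a percentage. Per the file headers, the log2 folds are the authors' own and set SG over SC. The extension level is an average signal per base and group as deposited, and the gene level is the authors' average in a unit that is not named.

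Reads per library were recovered from the extension averages. Level times length was searched for whole-number sums of 1 step per library, to a relative tolerance of 1.5e-14 and up to a product of 40000. The method was tested on simulated data. Depth is known only as the relative scale of 1 read, since library totals are not used here. Counting limits the precision of extensions with few reads.

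No test was run here: genes with an authors' FDR up to 0.05 were called, and the sign of the share fold, which was also that of the extension, gave the direction. The gene lists and comparisons were chosen with earlier results of these data known. Named genes were, among called genes, up to 5 per list with the largest log2 folds of the share, the 10 highest extension levels per group, the 10 largest share folds among steady genes, the 10 longest and 5 shortest extensions, the 10 lowest FDR, the 10 most abundant SC-higher genes, and bam, bgcn, tut, mei-P26 and stg. CG11319, CG18605, CG31473, CG33557, CSN5, Dak1, Dys, Lip2, Nup37, dar1, hkb, jagn and stai fall outside this rule and were named after their values were seen, because they belong to small counts. Positions were set against Ensembl release 115 (BDGP6.54, the assembly of dm6), with an end counted as annotated within 50 bases. Alternatives were stricter FDR thresholds, filters on gene level and reads, other definitions of steady, extensions free of other genes, and each library left out. A planned search for poly(A) signal hexamers was not run, because no genome sequence was used here. Python 3.11.15, numpy 2.4.6, pandas 2.3.3 and matplotlib 3.10.9 were used.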

Additional observations from a re-analysis of the deposited data

How the results depend on the processing

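Most values compared here are counts, lengths or shares, which cannot change sign, and no filter could change a gene's direction. Only the size of a change is therefore given. Of the summary values, 74 stayed close to the reported value and 14 moved. With a gene level of at least 10 in both groups, 316 extensions were called higher in SG and 30 higher in SC, and at an FDR of 0.001 those higher in SC were 27. With a gene level of at least 1, the median share of SG-higher extensions was 0.502% in SC and 9.26% in SG, that of SC-higher ones 2.25% in SC and 0.279% in SG, and 2 SC-higher extensions crossed the gene end. With shares of 100% left out, the SG-higher medians were 0.4997% and 8.71%, and the SC-higher median in SG was 0.342%. Steady genes with an SG-higher extension were 127 within 1.5-fold and 28 within 1.1-fold, and with an SC-higher extension 3 within 1.1-fold. Close means within 1.5 times, for folds on the linear scale. Among single genes and lists 224 values stayed close and 14 moved, 7 of them counts of lists and 7 folds of single genes with a library left out. At an FDR of 0.01 the proteasome list kept a count of 1, trafficking had 1 SC-higher gene, and mitochondria and ribosome biogenesis had 0. With a gene level of at least 1, transcription factors had 1 SC-higher gene, lipid metabolism had 0 and meiosis had 0 called.

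Each library was left out in turn, an alternative chosen after seeing the data. The median log2 folds were then 4.50 to 4.75 for SG-higher and -4.0 to -3.32 for SC-higher extensions. Extensions without overlap were 636 to 638 and 59, counts that cannot fall when a library is removed. Single log2 folds moved by over 1.5 times for 6 genes. That of RpS7 was 7.32 with all libraries and 8.86 without SC library c, and that of Gnf1 7.35 and 8.32 without SC library a. For cwo it was -3.45, against -2.87 without SG library b and -4.97 without SG library c, and for cl -3.47 against -4.54 without SG library c. Without SG library b that of Syb was -3.77, and without SC library a that of Pde9 was 5.54. No paired analysis was possible because the deposited values are group averages and the recovered libraries carry no replicate numbers. Few reads in SC limit the SG-higher folds: 97 extensions had under 10 reads there. The listed genes are a selection of all tests.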
